A study of Rattus norvegicus with 30 samples.

Results

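The comparison described here is between rat hepatocyte cultures that had been exposed to a low dose of chlorpromazine for 48 h and cultures exposed to the same dose for 24 h. It takes the 10 arrays whose titles give 0.8 µM, 5 at each time, out of 30 arrays in the series, and asks which transcripts moved between those times. Chlorpromazine hydrochloride is an older antipsychotic medicine that can impair bile flow in patients. Primary hepatocytes are liver parenchymal cells taken out of the animal. In culture they are known to lose part of their specialised program within days, including drug-metabolising P450 enzymes, while secretion of many plasma proteins continues. A change between the times at one dose can therefore hold both the age of the culture and the length of exposure, and the vehicle cultures, which aged in the same way without the drug, are set beside it.

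The cells were frozen hepatocytes of male Sprague Dawley rats, plated in wells and dosed on day 3 of culture with chlorpromazine at 0.8 or 20 µM or with vehicle alone, which was 1% dimethyl sulfoxide (DMSO). The drug solutions were also made in DMSO, so that solvent was common to all groups. RNA was collected after 24 or 48 h from 5 wells per dose and time, with 1 array per well. According to the labels the wells were separate cultures, but animals are not named, so p-values refer to the spread between wells. One vehicle array at 24 h, replicate 2, carries 2 h in its title and 24 h in its time entry, and was grouped by the latter. The arrays were numbered so that within each run of 6 the 48 h array followed its 24 h counterpart, and that order cannot be told apart from time.

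Signals are given as log2 of the deposited intensity, with values below 16 set to 16. Each change is the mean at 48 h minus the mean at 24 h ± its standard error, with 5 arrays per group, and that number of arrays limits the precision. A gene is called when its limma p, adjusted over all 11503 genes by the Benjamini-Hochberg method, was under 0.05, and "rose" and "fell" are used of called genes. Median signals of the 10 arrays ran from 396 to 432, and 3 to 4.53% of values lay below the floor. Hepatocyte markers were bright at both times: Alb (albumin) was at 16.47 ± 0.20 and 16.48 ± 0.26 (SD, n = 5) and Ttr (transthyretin) at 16.17 ± 0.17 and 16.15 ± 0.21 (SD, n = 5), and neither was called (adjusted p = 0.982 and 0.97).

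Replicate 1 at 24 h stood apart from the other 24 h arrays. On the first principal component of the 10 arrays, which held 17.85% of the variance, it scored -5.28, while the other 24 h arrays scored from 12.8 to 20.9 and the 48 h arrays from -19.1 to -7.87. Among the genes called without it, its signal was nearer to the 48 h mean than to the mean of its own group for 51.9%, against 7.95 to 25.4% for the other 9 arrays treated in the same way. One vehicle array at 24 h, replicate 5, stood apart likewise, at 46.4%. Both were kept, and for some genes and counts the value without one or both is given as well. The vehicle changes of single genes are given with all arrays.

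**Figure D1:**
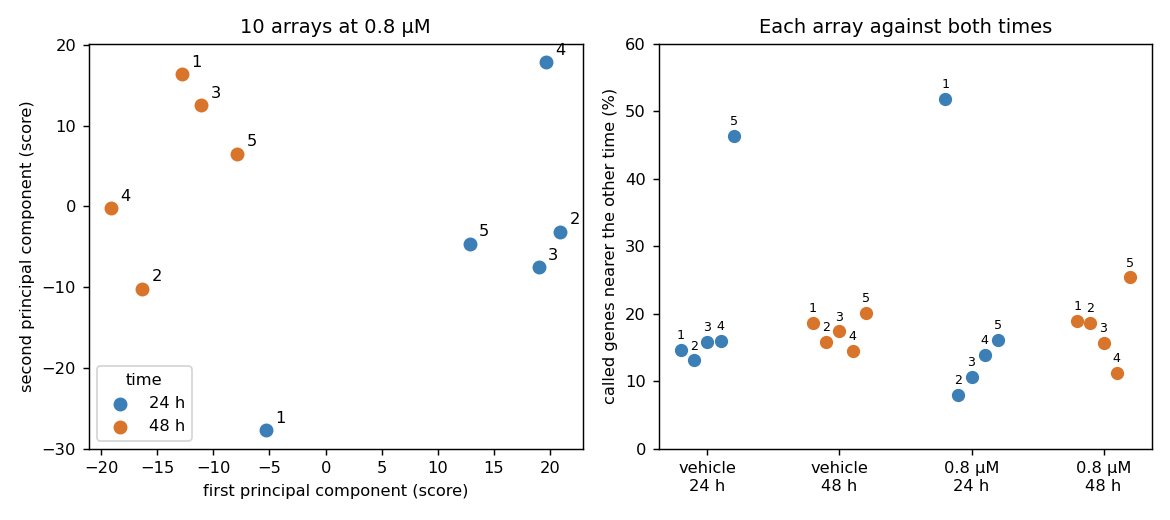
Left, scores of the 10 arrays at 0.8 µM on the first and second principal components, with numbers giving the replicate. Right, for each vehicle and 0.8 µM array, the percentage of genes called without that array whose signal in it lay nearer to the mean of the other time than to that of its own group. Replicate 1 of 0.8 µM at 24 h (51.9%) and replicate 5 of vehicle at 24 h (46.4%) lie above the other arrays.

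Between 24 and 48 h at 0.8 µM, 7 of 9 clade A serpins, 6 of 11 macrophage markers, 8 of 18 complement genes, 10 of 27 P450 and related oxidase genes and 8 of 33 interferon-stimulated genes fell. Of 25 genes of fatty acid oxidation, 8 rose. The lists were chosen with earlier results of these data known, so such shares only describe their members. Of the 11503 genes tested, 713 were called (6.2%), 390 of them higher (3.39%) and 323 lower (2.81%). Most changes were small, with a median size of 0.35 on the log2 scale among called genes, and 45 reached 2-fold, 21 higher and 24 lower. The 5 and 5 arrays did not overlap for 636 genes (5.53%), 435 of them called. Without replicate 1 at 24 h, 480 genes were called higher and 398 lower, and 642 genes were called in the same direction in both fits. Over all genes the median change was -0.01.

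Among called genes that were not dim and whose arrays did not overlap, the 10 largest falls included 6 secreted proteins and 3 P450 enzymes. Serpina6, which codes for corticosteroid-binding globulin, had log2 signals of 10.93, 12.33, 12.14, 12.11 and 12.33 in replicates 1 to 5 at 24 h and of 9.32, 10.25, 9.45, 8.70 and 9.77 at 48 h. All 5 arrays at 48 h lay below all at 24 h, and replicate 1 was the lowest at 24 h. The fall was 5.54-fold (-2.47 ± 0.25, adjusted p = 3.95e-08) and -2.73 ± 0.23 without replicate 1. Car3, carbonic anhydrase III, a cytosolic enzyme abundant in the liver of male rats, read 10.71, 13.27, 13.09, 13.02 and 12.73 at 24 h and 10.43, 10.41, 10.09, 9.92 and 10.53 at 48 h. Its replicate 1 at 24 h lay close to the 48 h arrays, and the fall was -2.29 ± 0.33 with it (adjusted p = 1.68e-05) and -2.75 ± 0.25 without it. A second kept probe set of Car3 gave -2.74 (adjusted p = 0.003).

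Cyp2c13, a male-predominant steroid hydroxylase, went from 12.28, 14.21, 14.09, 14 and 13.75 to 11.52, 11.74, 11.45, 11.09 and 11.52. Again replicate 1 was lowest among the 24 h arrays, and the groups did not overlap (-2.20 ± 0.25, adjusted p = 3.15e-07, and -2.54 without that array). Hamp, the iron hormone hepcidin, read 12.22, 13.86, 13.77, 13.59 and 13.36 at 24 h and 11.82, 12.12, 12.08, 11.53 and 11.83 at 48 h. It fell by 1.49 ± 0.25 on the log2 scale (adjusted p = 0.000127). Cyp2c7 (-1.41 ± 0.18), Cyp3a2, another steroid hydroxylase (-1.35 ± 0.22), Afm, the vitamin E-binding plasma protein afamin (-1.27 ± 0.12), and the neutrophil chemokine Cxcl1 (-1.24 ± 0.13) followed. Of these, Cxcl1 had no low replicate 1 at 24 h, with 11.58, 11.32, 11.62, 11.51 and 11.54 at 24 h and 10.29, 10.42, 10.39, 10.26 and 9.98 at 48 h.

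The 10 largest rises, chosen in the same way, were of genes of mixed roles. Serpine2, a serpin that inhibits thrombin and other serine proteases outside the cell, read 9.55, 8.97, 9.04, 8.71 and 9.32 at 24 h and 10.65, 10.83, 10.62, 10.55 and 10.98 at 48 h. The groups lay about a log2 unit apart, and it rose 3.05-fold (1.61 ± 0.16, adjusted p = 1.56e-08). Acta1, skeletal muscle actin, went from 10.65, 10.82, 11, 10.92 and 11.16 to 12.35, 12.48, 12.71, 12.13 and 12.84 (1.59 ± 0.13, adjusted p = 3.69e-10). Ldhb, the heart-type subunit of lactate dehydrogenase, was at 10.78, 10.28, 10.44, 10.48 and 10.70 and then at 11.94, 11.91, 12.06, 12.06 and 11.97. Its 48 h arrays spanned a narrow range, and it rose 2.74-fold (1.45 ± 0.08, adjusted p = 5.9e-14).

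Scd2, a stearoyl-CoA desaturase, read 9.60, 9.71, 9.76, 9.45 and 9.71 at 24 h and 11.06, 11.05, 11.11, 11.60 and 11.14 at 48 h (1.55 ± 0.11, adjusted p = 1.63e-11). Its other kept probe sets gave 0.54 and 0.29 and were not called (adjusted p = 0.115 and 0.791). The related Scd, by contrast with Scd2, fell by 0.31 ± 0.06 on the log2 scale. Tgfb2, a growth factor of the TGF-beta family, rose by 1.53 ± 0.40 from scattered 24 h signals of 7.96, 8.17, 6.99, 8.76 and 8.97. Without replicate 3 at 24 h its change was 1.24 (adjusted p = 0.0745), and its other kept probe set was not called (0.50, adjusted p = 0.168). Cd36, a fatty acid carrier of the cell surface, rose from 11.09, 9.90, 10.47, 10.67 and 11.08 to 11.74, 11.67, 11.90, 12.18 and 12.14 (1.28 ± 0.18). Clec14a, a membrane lectin (1.33 ± 0.18), Tsx (1.24 ± 0.18), Bex3 (1.07 ± 0.13) and Ttc39a (1.02 ± 0.15) completed the 10 largest. The other kept probe set of Bex3 gave 0.31 (adjusted p = 0.0576).

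Some large folds belonged to dim genes, whose lower group mean was under 8.09, the log2 of the arrays' mean 40th percentile. Of the 713 called genes, 18 were dim. Lad1, an anchoring filament protein, rose from 5.16, 5.86, 5.79, 7.57 and 5.59 to 8.55, 8.94, 9.07, 9.19 and 9.44 (3.04 ± 0.57, adjusted p = 0.00059). Ica1l (1.72 ± 0.38) and Catsper2 (1.30 ± 0.24) rose, and Gstp3 (-2.69 ± 0.36), Nnat (-1.54 ± 0.30) and Ropn1l (-1.06 ± 0.26) fell. The 24 h arrays of Ica1l were widely scattered, at 5.20, 5.38, 7.81, 7.34 and 5.85.

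**Figure D2:**
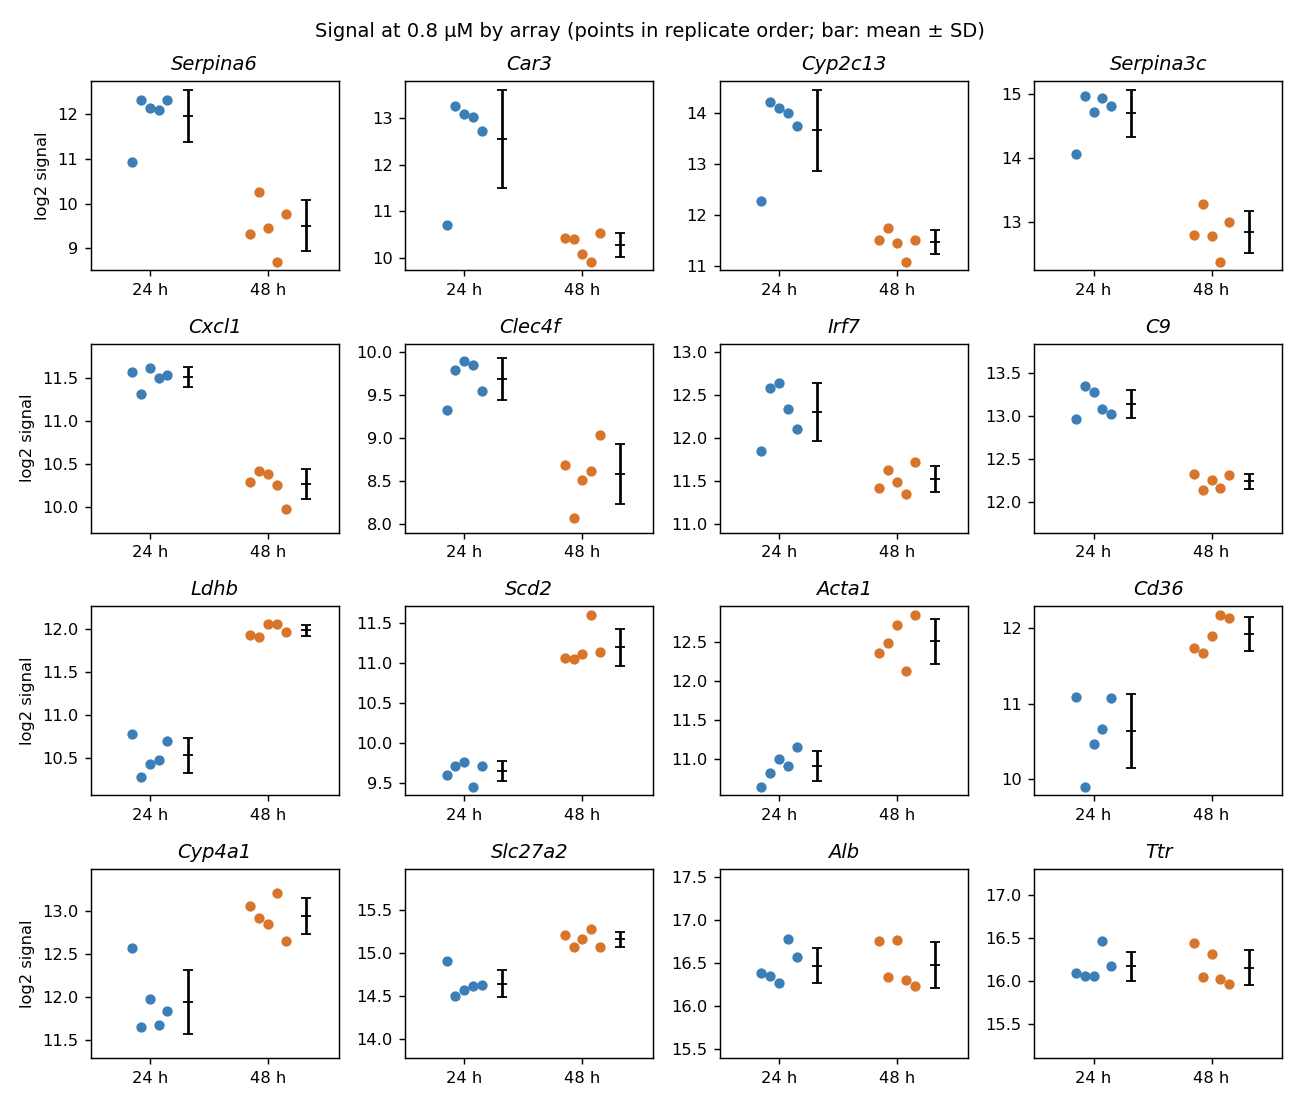
Log2 signal of 16 genes on the 10 arrays at 0.8 µM, with points in order of replicate and bars for the mean ± SD of 5 arrays. In Serpina6, Car3, Cyp2c13 and Serpina3c replicate 1 at 24 h lies below the other 24 h points, in Cxcl1, Ldhb and Scd2 it does not, and Alb and Ttr overlap between the times.

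Clade A serpins are protease inhibitors and hormone carriers that hepatocytes secrete, and many sit side by side in one gene cluster. Of 9 tested members of the list of clade A serpins, 7 fell and 0 rose, with a median change of -0.35 against -0.01 over all genes, and 7 fell without each single array as well. In RefSeq's current gene table (GRCr8) the cluster on chromosome 6 holds 19 Serpina genes, of which 10 were tested here, and 8 of those fell. In order along the chromosome these were Serpina10 (-0.24 ± 0.06), Serpina6, Serpina11 (-0.31 ± 0.07), Serpina4, which codes for kallistatin (-0.38 ± 0.08), Serpina3m (-0.36 ± 0.06), Serpina3c (-1.85 ± 0.18), Serpina3l (-1.34 ± 0.15) and Serpina3n (-0.35 ± 0.08). Serpina1, which codes for the abundant alpha-1-antitrypsin, was not called (-0.08 ± 0.10, adjusted p = 0.762), nor was the dim Serpina5 (0.73 ± 0.37, adjusted p = 0.302).

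Sizes differed within the cluster. Serpina3c read 14.07, 14.97, 14.71, 14.93 and 14.81 at 24 h and 12.80, 13.28, 12.79, 12.39 and 13 at 48 h, and the neighbouring Serpina3l 14.09, 14.85, 14.76, 14.81 and 14.75 and then 13.48, 13.52, 13.40, 12.78 and 13.37. Both were separate between the times, and both had their lowest 24 h signal in replicate 1. Serpina3m, in the same stretch, spanned 13.98 to 14.26 at 24 h and 13.70 to 13.91 at 48 h. The Serpina3 genes are close paralogs, and whether their probe sets also bind each other's transcripts was not tested.

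**Figure D3:**
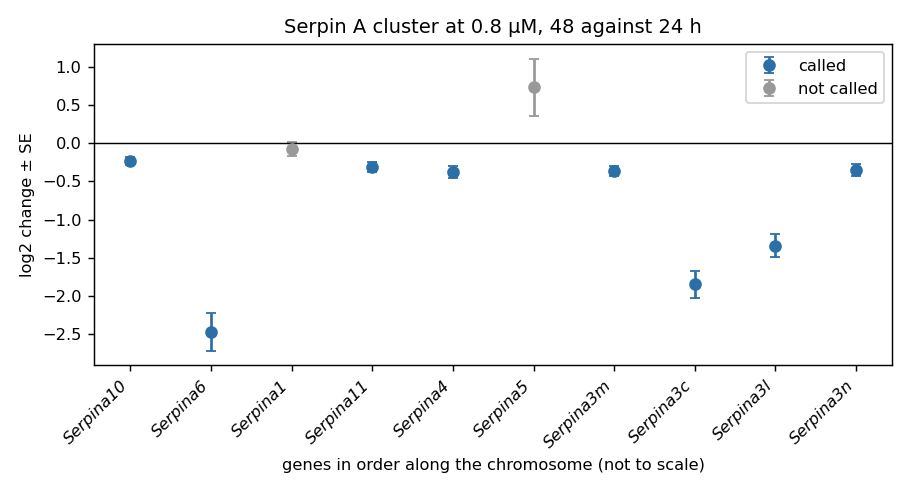
Log2 change from 24 to 48 h at 0.8 µM ± standard error for the 10 tested genes of the serpin A cluster, placed in order along the chromosome without scale. Called genes, all lower, run from -0.24 (Serpina10) to -2.47 (Serpina6), and Serpina1 (-0.08) and Serpina5 (0.73) were not called.

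Calls among other plasma proteins and clotting factors were falls. Of 22 constitutive plasma proteins, 8 fell and 0 rose (median -0.11), 7 to 10 when single arrays were left out. Besides Serpina6 and Afm they included Pon1, the paraoxonase of high-density lipoprotein (-0.75 ± 0.09), and Fetub, fetuin-B (-0.48 ± 0.05). Of 20 coagulation and fibrinolysis factors, 5 fell and 0 rose (median -0.10), and 1 rose without replicate 4 at 24 h or replicate 5 at 48 h. Serpinc1, antithrombin, fell from 15.03, 15.19, 15.12, 15.25 and 15.21 to 14.80, 14.68, 14.69, 14.64 and 14.72, a small step with little scatter (-0.45 ± 0.05, adjusted p = 5.85e-08). Vtn, vitronectin (-0.42 ± 0.06), and Plg, plasminogen (-0.38 ± 0.09), fell too. Of 26 genes of lipid droplets and lipoproteins, 5 fell and 4 rose (median -0.01). Apoa2, an apolipoprotein of high-density lipoprotein, fell by 0.94 ± 0.07 on the log2 scale, and the hepatic lipase Lipc by 0.76 ± 0.08, while the droplet protein Cidec rose by 0.60 ± 0.14. Without replicate 3 at 24 h or replicate 3 at 48 h, 2 members of that list rose.

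Complement is a chain of plasma proteases and membrane-attack proteins made mostly by hepatocytes. Of 18 components and regulators, 8 fell and 1 rose (median -0.10), and 8 fell without each single array. C9, the pore-forming end of the chain, read 12.97, 13.35, 13.28, 13.08 and 13.03 at 24 h and 12.33, 12.14, 12.26, 12.16 and 12.32 at 48 h. The groups were apart by more than their own ranges (-0.90 ± 0.08, adjusted p = 1.86e-09). Other parts of the membrane-attack complex fell with it: C6 (-0.46 ± 0.10), C8g (-0.43 ± 0.06) and C8b (-0.36 ± 0.07). C4bpb, a subunit of the C4-binding regulator (-0.63 ± 0.12), C1r, a protease of the first component (-0.36 ± 0.07), C3, on which the pathways meet (-0.35 ± 0.05), and the C1 inhibitor Serping1 (-0.32 ± 0.06) fell. Mbl2, a mannose-binding lectin, rose (0.40 ± 0.09). Without replicate 1 at 24 h, 2 complement genes rose.

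Cytochromes P450 moved in both directions. Among 27 genes for constitutive P450 or flavin-containing monooxygenase enzymes, 10 fell and 4 rose (median -0.05), with 7 higher without replicate 1 at 24 h. Those that fell included 5 enzymes of the 2C family: Cyp2c13, Cyp2c7, Cyp2c12 (-1.40 ± 0.41), Cyp2c23 (-0.70 ± 0.15) and Cyp2c11 (-0.62 ± 0.09). The call of Cyp2c12 was lost without 8 of the 10 single arrays. Cyp2c11, the main male-specific P450 of rat liver, read 14.33, 13.97, 14.11, 14.12 and 14.06 at 24 h and 13.66, 13.31, 13.35, 13.93 and 13.26 at 48 h, without overlap and with replicate 1 the highest at 24 h. Cyp2e1, which oxidises ethanol, fell (-0.62 ± 0.09), and so did Cyp1a2 (-0.64 ± 0.07), whereas Cyp1a1 was not called (-0.09 ± 0.09, adjusted p = 0.698). Cyp4a1, which hydroxylates the ends of fatty acids, rose from 12.56, 11.65, 11.97, 11.67 and 11.83 to 13.06, 12.92, 12.85, 13.21 and 12.65. Replicate 1 was the highest of the 24 h arrays, and the change was 1.00 ± 0.15 with it (adjusted p = 3.58e-05) and 1.16 without it.

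Of 30 conjugation enzymes, which attach glutathione, sulfate or glucuronate to other molecules, 6 rose and 3 fell (median 0.07). The glutathione transferases Gstm7 (0.89 ± 0.15) and Gsta3 (0.61 ± 0.09) rose. Gstm7 read 11.25, 10.64, 10.92, 11.10 and 10.89 at 24 h and 12.02, 11.85, 11.76, 11.88 and 11.74 at 48 h. The sulfotransferases Sult1c3 (-1.01 ± 0.23) and Sult1e1 (-0.98 ± 0.16), which sulfates estrogens, fell. The count of higher conjugation genes depended on single arrays: it was 10 without replicate 1 at 24 h, and 3 without replicate 3 at 24 h or replicate 4 at 48 h.

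Fatty acid oxidation breaks fatty acids down in mitochondria and peroxisomes, and many of its genes are targets of the nuclear receptor PPARalpha. Of 25 members, 8 rose and 1 fell (median 0.15). Besides Cyp4a1, Vnn1, a pantetheinase, went from 12.12, 11.16, 11.20, 11.34 and 11.47 to 12.20, 12.31, 12.24, 12.47 and 12.17 (0.82 ± 0.15, adjusted p = 0.000457). Its replicate 1 at 24 h lay near the 48 h arrays, and without that array the change was 0.99. Ehhadh (0.59) and Angptl4 (0.41) rose too, but each call was lost without 8 of the 10 single arrays. Those calls were also lost under 2 other settings for Ehhadh and 4 for Angptl4. Ech1 (0.35 ± 0.07) and Decr1 (0.23 ± 0.05), auxiliary enzymes for unsaturated fatty acids, rose, and Fabp1, the liver fatty acid-binding protein, fell (-0.36 ± 0.10). The number that rose was 4 without replicate 2 at 24 h and 5 without replicate 3 or 4 at 24 h or replicate 4 at 48 h, and the fall of Fabp1 was lost without replicate 2 or 3 at 24 h or replicate 5 at 48 h. Of 14 bile acid synthesis enzymes, 3 rose and 0 fell (median 0.15). They were Slc27a2, an acyl-CoA synthetase (0.52 ± 0.07), Cyp27a1, which starts the alternative pathway (0.28 ± 0.06), and Hsd17b4 of the peroxisome (0.26 ± 0.06), and 5 rose without replicate 1 at 24 h. Cyp7a1, the rate-limiting step, spanned 10.03 to 11.31 at 24 h and 10.23 to 11.57 at 48 h and was not called (0.45 ± 0.25, adjusted p = 0.358).

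Of 17 genes of steroid reductases, dehydrogenases and carboxylesterases, 5 rose and 1 fell (median -0.03). The carboxylesterase Ces1c fell (-0.83 ± 0.08), while the related Ces1d (0.69 ± 0.16), Ces2c (0.38 ± 0.09) and Aadac, an arylacetamide deacetylase (0.74 ± 0.14), rose. Without replicate 1 at 24 h, 2 members of that list fell. Of 19 annexins, S100 proteins and galectins, which bind calcium, membranes or sugars and often increase as hepatocytes flatten in culture, 4 rose and 1 fell (median 0.03). Cd9, a tetraspanin kept in that list (0.68 ± 0.11), Anxa8 (0.49 ± 0.09), S100a11 (0.48 ± 0.08) and Anxa3 (0.47 ± 0.08) rose. Other kept probe sets of Anxa3 gave changes from 0.12 to 0.62 and were not called. S100a6 fell (-0.28 ± 0.08, adjusted p = 0.0336). Of that list 3 members fell without replicate 1 at 24 h, and 0 fell without any of replicates 2 to 5 at 24 h or replicate 1 or 4 at 48 h.

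Inflammatory genes fell more often than they rose. Of 33 interferon-stimulated genes, 8 fell and 0 rose (median -0.21), 6 to 11 when single arrays were left out. Irf7, the transcription factor that amplifies interferon output, read 11.84, 12.58, 12.64, 12.33 and 12.10 at 24 h and 11.42, 11.63, 11.48, 11.35 and 11.72 at 48 h. Its groups did not overlap (-0.78 ± 0.15, adjusted p = 0.00126). Isg15, a ubiquitin-like modifier, read 11.39, 12.73, 12.84, 12.50 and 12 and then 11.27, 11.37, 11.04, 10.88 and 12.12. These overlapped through replicate 1 at 24 h and replicate 5 at 48 h (-0.96 ± 0.23, adjusted p = 0.00808). The antiviral GTPase Mx2 (-0.85 ± 0.22, lost without 3 of the 10 single arrays), Rtp4 (-0.70 ± 0.14), the ISG15 protease Usp18 (-0.66 ± 0.14), the membrane proteins Ifitm3 (-0.63 ± 0.09) and Bst2 (-0.56 ± 0.12), and the interferon signal carrier Stat2 (-0.28 ± 0.08) fell.

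Of 25 chemokine, interleukin-1 receptor and NF-kappaB genes, 5 fell and 1 rose (median -0.04). Cxcl1 and the related Cxcl2 attract neutrophils through the receptor CXCR2. Cxcl2, which was dim at 48 h, read 8.46, 8.76, 8.57, 8.12 and 8.47 at 24 h and a wide 5.38, 7.38, 8.25, 5.03 and 7.43 at 48 h (-1.78 ± 0.43, adjusted p = 0.00869). Il1rn, the interleukin-1 receptor antagonist (-1.30 ± 0.35, lost without 5 of the 10 single arrays), Ccl5 (-0.81 ± 0.23) and Nfkbiz, an inducible regulator of NF-kappaB (-0.44 ± 0.08), fell. The dim Ccl3 rose (1.31 ± 0.38), a call lost without 6 of the 10 single arrays. The number of falls was 3 without replicate 2 or 3 at 24 h or replicate 2 at 48 h. Of 22 acute phase proteins, 5 fell and 2 rose (median -0.16), with Hamp and Il1rn among those that fell, and between 2 (without replicate 4 at 24 h) and 7 fell when single arrays were left out. Crp was among those that rose (0.48, adjusted p = 0.0361), a call lost without 6 of the 10 single arrays. The major acute phase proteins A2m (-0.30 ± 0.10, adjusted p = 0.0647) and Orm1 (-0.04 ± 0.11, adjusted p = 0.919) were not called.

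The promoters of 3 of these genes are shown because their transcripts fell and each holds letters bound by a known regulator of its group. They run from 250 bases before to 50 bases after the start site and were taken from RefSeq, build GRCr8. Capitals mark matches on either strand to GAAANNGAAA, the core of the interferon-stimulated response element, in Irf7, and to GGGANNNNCC, an NF-kappaB core, in Cxcl1 and Cxcl2. In Cxcl1 the second capital stretch holds 2 overlapping matches, one on each strand.
Irf7, chr1:205799974-205800273, minus strand: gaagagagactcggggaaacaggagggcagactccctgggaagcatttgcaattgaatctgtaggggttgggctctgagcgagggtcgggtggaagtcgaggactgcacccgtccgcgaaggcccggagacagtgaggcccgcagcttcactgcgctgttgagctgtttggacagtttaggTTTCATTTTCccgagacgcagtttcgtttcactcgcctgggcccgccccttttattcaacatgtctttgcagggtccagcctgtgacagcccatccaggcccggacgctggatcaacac
Cxcl1, chr14:17479272-17479571, minus strand: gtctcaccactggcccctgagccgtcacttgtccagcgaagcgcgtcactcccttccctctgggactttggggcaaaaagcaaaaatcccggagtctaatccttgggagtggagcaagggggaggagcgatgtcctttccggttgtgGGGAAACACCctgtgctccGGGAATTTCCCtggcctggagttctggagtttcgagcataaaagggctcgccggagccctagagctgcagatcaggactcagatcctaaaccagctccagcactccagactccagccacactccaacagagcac
Cxcl2, chr14:17467206-17467505, minus strand: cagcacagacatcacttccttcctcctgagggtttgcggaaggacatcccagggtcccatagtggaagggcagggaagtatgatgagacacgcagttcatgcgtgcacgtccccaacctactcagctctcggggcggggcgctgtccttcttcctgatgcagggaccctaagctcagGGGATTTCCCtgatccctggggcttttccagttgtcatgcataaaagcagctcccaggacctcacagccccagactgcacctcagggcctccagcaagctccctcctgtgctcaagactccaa

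Genes that were not called held these letters too. The interferon core stood in 3.92% of 33469 promoter windows in the RefSeq table. Not every member had a window: in the interferon list 4 of 8 called genes and 21 of 25 others had one. The core stood in 3 of those 4 and in 15 of those 21. The NF-kappaB core, with fewer fixed letters, stood in 19.3% of all windows. In the chemokine and NF-kappaB list 4 of 6 called genes and 15 of 19 others had a window, and the core stood in 3 of those 4 and in 8 of those 15. A match describes letters in the window and says nothing of binding in these cells.

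Kupffer cells, the macrophages of the liver, can be carried over in hepatocyte preparations. Of 11 tested Kupffer cell and macrophage markers, 6 fell and 0 rose, with a median of -0.51, 4 to 6 fell when single arrays were left out, and 1 rose without replicate 5 at 48 h. Clec4f, a lectin of rodent Kupffer cells, read 9.32, 9.79, 9.90, 9.85 and 9.55 at 24 h and 8.69, 8.07, 8.51, 8.62 and 9.03 at 48 h, with no overlap (-1.10 ± 0.21, adjusted p = 0.000734). C1qb, a chain of complement C1q made by macrophages, read 10.14, 10.44, 9.94, 10.59 and 10.33 and then 8.78, 8.93, 9.19, 8.56 and 10.20. Only replicate 5 at 48 h reached into the 24 h range (-1.16 ± 0.25, adjusted p = 0.00315). The dim scavenger receptor Cd163 (-0.97 ± 0.23), the lysosomal glycoprotein Cd68 (-0.80 ± 0.13), C1qc (-0.61 ± 0.17) and C1qa (-0.42 ± 0.12) fell. Not called were Cd14 (-0.11 ± 0.05, adjusted p = 0.275), Lyz2 (0.17 ± 0.07, adjusted p = 0.144), Csf1r (-0.11 ± 0.18, adjusted p = 0.818), Aif1 (-0.17 ± 0.21, adjusted p = 0.759) and the dim Ptprc (-0.51 ± 0.35, adjusted p = 0.496).

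The summed signal of all 11 markers, which Cd14 and Lyz2 dominate, was 29720 to 31700 at 24 h and 26120 to 29390 at 48 h, without overlap. In these bulk samples fewer macrophages and less RNA per macrophage cannot be told apart, and the part of these cells in the fall of the interferon, chemokine and complement genes was not tested. Few markers of other cell types were tested, so their counts show little of how those cells changed. Of 5 sinusoidal endothelial markers 1 fell (Lyve1, -0.57 ± 0.18, lost without 9 of the 10 single arrays), and of 8 stellate cell markers 1 rose (Col3a1, 0.24 ± 0.07, lost without 8). The cholangiocyte marker Epcam, which cultured hepatocytes may also express, rose (0.44 ± 0.06), Krt7, Spp1 and Cftr did not pass the filter on dim signals, and none of the 2 tested lymphocyte and 3 erythroid markers was called. Of 7 hepatocyte markers, Hnf4a (-0.27 ± 0.05) and the asialoglycoprotein receptor Asgr1 (-0.20 ± 0.05) fell. The other kept probe sets of Hnf4a were not called (0.07 and -0.03, adjusted p = 0.829 and 0.948), and the call of Asgr1 was lost without replicate 1 at 24 h (-0.16, adjusted p = 0.051).

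**Figure D4:**
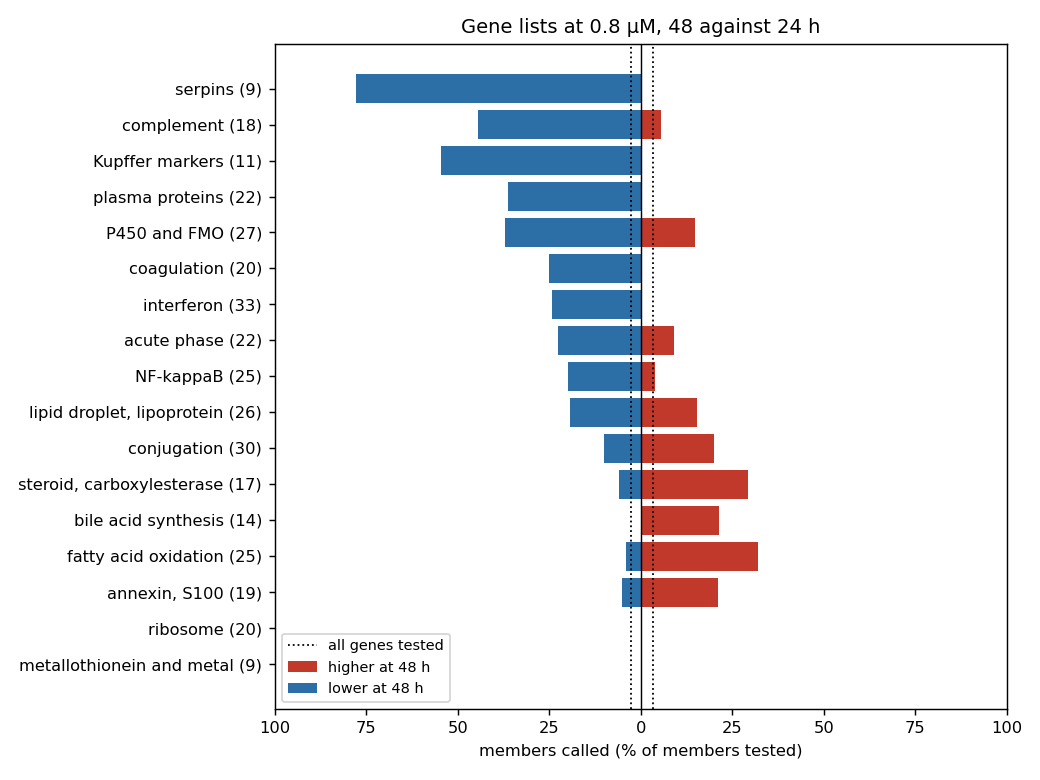
Share of the tested members of 17 gene lists called higher (red, to the right) or lower (blue, to the left) at 48 than at 24 h in the 0.8 µM cultures, with the number tested in brackets. Dotted lines mark the shares over all genes, 3.39% higher and 2.81% lower. Serpins (7 of 9), Kupffer markers (6 of 11) and complement (8 of 18) extend farthest to the left, and fatty acid oxidation (8 of 25) farthest to the right.

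Lists of general cell functions are given here beside the 6.2% called over all genes. Of 20 cytosolic ribosomal proteins and 9 metallothioneins and metal carriers, 0 were called, and of 35 proteasome subunits 1 rose (Psma3, 0.31 ± 0.04). Of 32 respiratory chain subunits 1 fell (Ndufb10, -0.18 ± 0.04). Of 17 cholesterol synthesis enzymes 2 fell and 0 rose, Tm7sf2 (-0.67 ± 0.07) and Ebp (-0.33 ± 0.06). Of 27 targets of the integrated stress response 2 rose and 2 fell, and the transcription factor Ddit3 was not called (-0.16 ± 0.12, adjusted p = 0.52). The heat shock proteins Cryab (0.42 ± 0.06) and Hspb1 (0.38 ± 0.09), which chaperone unfolded proteins, were the 2 of 13 members of their list that rose. The p53 target Cdkn1a (-0.09 ± 0.09, adjusted p = 0.675) and the heme oxygenase Hmox1 (0.01 ± 0.08, adjusted p = 0.976) were not called.

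Most genes called at 0.8 µM moved in the same direction with vehicle, while the counts of some lists differed. The vehicle cultures changed in 1516 genes between 24 and 48 h (13.2%). Of the 713 genes called at 0.8 µM, 684 had the same sign in vehicle and 477 were called there in the same direction, which is 66.9% of the calls at 0.8 µM and 31.46% of those in vehicle, and 0 were called in the opposite direction. Across genes, which are not independent replicates, the changes at 0.8 µM and in vehicle correlated with r = 0.40 over all 11503 genes and 0.87 over the 713. These comparisons share no array. In vehicle 7 of 9 clade A serpins fell and 1 rose, and 8 of 18 complement genes fell and 4 rose. Of 25 fatty acid oxidation genes, 8 rose and 1 fell there. Of 27 P450 and related oxidase genes, 9 rose and 6 fell with vehicle, against 4 and 10 at 0.8 µM. Of 17 cholesterol synthesis enzymes 7 rose and 1 fell with vehicle, against 0 and 2 at 0.8 µM. Whether these counts differ between vehicle and 0.8 µM was not tested. Serpina6 fell by 2.89 on the log2 scale in vehicle, Car3 by 2.46, Cyp2c13 by 2.23 and Serpina3c by 2.37, and Scd2 (1.36), Ldhb (1.11), Acta1 (1.27) and Serpine2 (1.44) rose there. Clec4f (-1.26) and C1qb (-1.18) fell in vehicle too. The dim Cd163 was not called there (-0.18, adjusted p = 0.703), but its time changes at 0.8 µM and in vehicle were not called different (-0.79 ± 0.32, adjusted p = 0.544).

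The difference between both time changes was tested directly and was called for 8 genes (0.0695%), all with a lower change at 0.8 µM, while 857 genes had an unadjusted limma p under 0.05. Sult1e1 read 10.99, 11.20, 11.08, 11.25 and 10.18 with vehicle at 24 h and 11.22, 11.24, 11.28, 11.23 and 10.82 at 48 h. At 0.8 µM it read 10.39, 11.22, 11.03, 10.75 and 10.49 and then 9.83, 9.74, 9.76, 10.08 and 9.60. With vehicle it was not called (0.22, adjusted p = 0.444) and with the drug it fell, a difference of -1.19 ± 0.23 (adjusted p = 0.0186). Without replicate 5 of 0.8 µM at 48 h the difference was -1.14 (adjusted p = 0.0603), and the call was also lost without a trend in eBayes and with only the groups compared in the fit (adjusted p of at most 0.0976). C9 read 13.16, 12.94, 13.04, 12.84 and 12.80 with vehicle at 24 h and 12.59, 12.77, 12.65, 12.72 and 12.66 at 48 h, a smaller fall than at 0.8 µM (difference -0.62 ± 0.11, adjusted p = 0.0148).

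Omd, the matrix proteoglycan osteomodulin, rose with vehicle from 9.77, 9.65, 9.47, 9.78 and 10.27 to 10.60, 10.89, 10.72, 10.79 and 10.60. At 0.8 µM its arrays overlapped, at 10.06, 9.78, 10.05, 9.58 and 9.96 and then 9.75, 9.56, 9.56, 9.68 and 9.79, and the difference was -1.16 ± 0.18 (adjusted p = 0.00304). Cflar, an inhibitor of death receptor signalling, rose with vehicle (1.06) and was not called at 0.8 µM (-0.34 ± 0.17, adjusted p = 0.303), a difference of -1.39 ± 0.24 (adjusted p = 0.0148). That call was lost when a gene's probe sets were averaged and when only the groups compared were fitted, with an adjusted p of at most 0.17. Cyp3a18, a steroid hydroxylase, rose with vehicle (0.45) and was not called at 0.8 µM (-0.09 ± 0.07, difference -0.53 ± 0.10). Cryab rose in both, by 0.86 with vehicle and 0.42 at 0.8 µM (difference -0.44 ± 0.09), and Cab39, a scaffold of the kinase LKB1, rose by 0.69 and 0.28 (difference -0.41 ± 0.08), a call lost under 3 other settings. For Cyp2c11 the vehicle change was 0.01 (adjusted p = 0.97) and the difference -0.63 ± 0.13, a call lost without 15 of the 20 single arrays and under 3 other settings. Between 4 (without replicate 5 of 0.8 µM at 48 h) and 13 (without vehicle replicate 3 at 48 h or 5 at 24 h) genes were called when single arrays were left out. Without both arrays that stood apart 11 were called, and these included Sult1e1 (-1.10), C9 (-0.62), Omd (-1.23), Cflar (-1.39), Cyp3a18 (-0.59), Cab39 (-0.48) and Cyp2c11 (-0.62), but not Cryab.

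At a single time the low dose differed from vehicle in fewer genes at 24 than at 48 h: 95 genes were called at 24 h (0.826%) and 383 at 48 h (3.33%), and whether these numbers differ was not tested. The number at 24 h was 147 without replicate 1 of 0.8 µM, and between 16 and 62 without any one of replicates 2 to 5 of 0.8 µM or replicates 2, 4 and 5 of vehicle. At 48 h it was 199 without replicate 5 and 237 without replicate 3 of 0.8 µM, and 228 without replicate 4 of vehicle. Sult1e1 was lower than vehicle at 48 h (-1.36 ± 0.16, adjusted p = 2.71e-06) and not called at 24 h (-0.16 ± 0.16, adjusted p = 0.769). Omd (-1.05 ± 0.12) and Cyp3a18 (-0.76 ± 0.07) were lower at 48 h and not called at 24 h (adjusted p = 0.825 and 0.144).

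**Figure D5:**
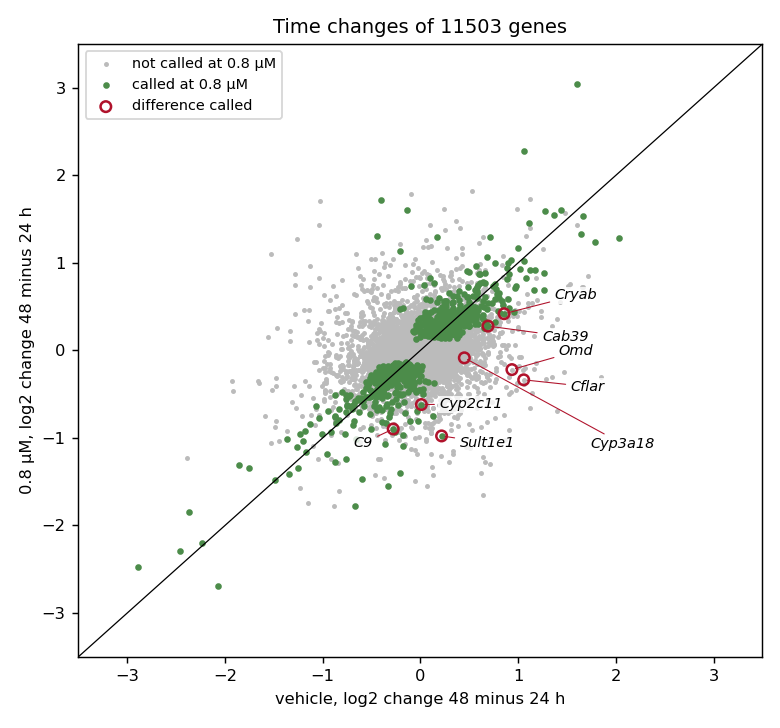
Log2 change from 24 to 48 h in vehicle cultures (horizontal) and at 0.8 µM (vertical) for 11503 genes, with the line of equal change. Green points are the 713 genes called at 0.8 µM, and red circles mark the 8 genes whose changes differed between vehicle and 0.8 µM, all of them below the line.

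At 20 µM, the high dose of the series, 1198 genes were called between 24 and 48 h (10.4%). Of the 713 genes called at 0.8 µM, 328 were called there in the same direction (46% of the calls at 0.8 µM and 27.38% of those at 20 µM) and 14 in the opposite one. The time change differed between the doses in 166 genes (1.44%), 50 with a higher and 116 with a lower change at 20 µM, and in 260 without replicate 1 of 0.8 µM at 24 h. Cd68 fell by 0.80 ± 0.13 on the log2 scale at 0.8 µM and rose by 0.50 ± 0.13 at 20 µM (difference 1.30 ± 0.18, adjusted p = 4.04e-05), whereas Clec4f (-1.15) and C1qb (-1.21) fell at 20 µM as well. Hamp fell at 0.8 µM and was not called at 20 µM (-0.08 ± 0.25), a difference of 1.41 ± 0.35 (adjusted p = 0.0305) that was lost without 9 of the 20 single arrays and without a trend in eBayes. Cyp4a1 rose at 0.8 µM and fell at 20 µM (-0.52 ± 0.15, difference -1.52 ± 0.21), and Ces1d did the same (-0.99 ± 0.16 at 20 µM, difference -1.68 ± 0.22). Cyp2e1 fell by 0.62 at 0.8 µM and fell by 2.12 at 20 µM (difference -1.50 ± 0.13). Eno2, neuronal enolase (1.17 ± 0.23), and Sfn, 14-3-3 sigma (0.97 ± 0.15), changed more at 20 µM, and at 0.8 µM neither was called (0.02 ± 0.17 and 0.18 ± 0.11, adjusted p = 0.968 and 0.403). Otc, of the urea cycle, was not called at 0.8 µM (0.31 ± 0.25, adjusted p = 0.583) and fell at 20 µM (difference -1.49 ± 0.35). That difference was not called without a trend in eBayes or with only the groups compared in the fit (adjusted p of at most 0.0749). Olr59 was likewise not called at 0.8 µM and fell at 20 µM (difference -2.01 ± 0.51, lost without 14 of the 20 single arrays and under 3 other settings).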

How the data were processed

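Gene expression was measured with 1 Affymetrix rat array per culture, and the deposited values are MAS5 signal intensities on a linear scale, per the submitters' processing notes, in which the MAS5 version is not given. From the values, the authors' scaling set the mean of each array between percentiles 2 and 98 to 1500. Intensities below 16 were set to 16 and log2 was taken, with no further normalization. Of 31099 probe sets, 57 were controls, 20826 had 1 gene symbol in the platform annotation, 436 had several and 9780 were not listed in it. A probe set was kept if 5 or more arrays had it above their 40th percentile (21226 passed), and where several shared a gene the brightest on average stood for it.

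All 30 arrays were fitted as 6 group means with limma 3.58.1 (lmFit, and eBayes with a trend) in R 4.3.3, and p-values were adjusted over 11503 genes. The 6 groups share 1 estimate of the spread. As a check of the code, the fit was run on simulated arrays with known changes and independent noise. Those held no arrays that stood apart, so the check does not cover that feature of the data. Replicate numbers are positions in the array order, and samples with the same number did not deviate together (r from -0.046 to 0.0483), so they were not treated as pairs. The genes named were the 10 largest rises and falls that were not dim and did not overlap, the 3 largest dim ones each way, up to 4 called members of each of 44 gene lists, up to 5 in each direction of the differences against vehicle and 20 µM, and a panel of 18 genes. Cab39 was named beyond the limit of 5 for the difference against vehicle. Further members of the serpin, complement, interferon, chemokine, P450, fatty acid oxidation, annexin and marker lists, and Scd, were named after their values were seen. Genes without a name beyond a locus number entered the counts alone. The comparison and the lists were chosen with earlier results of these data known. Alternatives covered the floor, filter, normalization, array weights, probe set choice, replicate block, samples fitted and threshold, and each array left out in turn. Promoters came from RefSeq, build GRCr8.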

Additional observations from a re-analysis of the deposited data

Results flagged for a closer look

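Among 310 pairs of a named gene and a group of 5 arrays at 0.8 µM, 30 (9.68%) had 1 array whose gap to the nearest other array, divided by the range of the group, was above 0.71. Chance alone would give this in about 1 in 20 groups. Replicate 1 at 24 h was that array in 19 pairs and replicate 4 at 48 h in 6.

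Replicate 1 at 24 h was the lowest of its group for Afm (12.77), Car3 (10.71), Cyp2c13 (12.28), Eno2 (9.81), Gpnmb (12.16), Gstp3 (9.71), Hmox1 (14.72), Per2 (9.98), Pfkp (11.95), Rup2 (15.99), Serpina3c (14.07), Serpina3l (14.09), Serpina4 (14.27) and Serpina6 (10.93). It was the highest for Akr1c1 (12.71), Cyp7a1 (11.31), Fetub (15.80), Gsta3 (13.99) and Olr59 (10.32). Replicate 4 at 48 h was the lowest for A2m (15.76), Ddit3 (11.10), Serpina3l (12.78) and Vtn (14.89) and the highest for Cyp2c12 (9.68) and Scd2 (11.60). The remaining cases were Cryab in replicate 2 at 24 h (12.12), Ttr in replicate 4 at 24 h (16.46), Pygl in replicate 2 at 48 h (13.40), and Catsper2 (7.94) and Srebf2 (11.56) in replicate 3 at 48 h. What set these arrays apart was not tested.

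The time change at 0.8 µM minus that in vehicle passed limma's test for C9 (-0.62), Cab39 (-0.41), Cflar (-1.39), Cyp2c11 (-0.63), Omd (-1.16) and Sult1e1 (-1.19). It also passed for Cyp3a18 and Cryab, whose differences were not followed gene by gene through every setting. Without replicate 1 of 0.8 µM at 24 h, Cyp3a18 was still called (-0.58, adjusted p = 0.00557) and Cryab was not (-0.43, adjusted p = 0.0574). The time change at 20 µM minus that at 0.8 µM passed it for Cd68 (1.30), Ces1d (-1.68), Cflar (0.97), Cyp2e1 (-1.50), Cyp4a1 (-1.52), Eno2 (1.17), Hamp (1.41), Olr59 (-2.01), Otc (-1.49) and Sfn (0.97). Of these, the call of Cflar was lost without 10 of the 20 single arrays and with the mean of its probe sets (adjusted p = 0.2).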

How the results depend on the processing

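Among the named genes and differences, 7 changed sign in at least 1 setting, and 0 of these were called: the changes at 0.8 µM of Alb, Eno2, Hmox1, Igfbp1, Orm1, Pck1 and Ttr, all near 0. The balance of calls turned in some settings: vehicle had 745 higher and 771 lower, but 735 and 607 with arrays centred on their medians and 987 and 908 over all kept probe sets, and 20 µM had 582 and 616, but 628 and 624 with only the groups compared. Of 136 named genes called at 0.8 µM, 106 were called without each single array. In every other setting that gave a value for the gene, 97 were called at an adjusted p under 0.05. The stricter threshold and the fit of all kept probe sets are not part of that count. With only the groups compared, calls lost at 0.8 µM included Cd163, Cxcl2, Isg15, Ica1l, Ropn1l and Ndufb10. Those of Anxa3 and Hnf4a were lost with the mean of probe sets, and that of Cyp2c12 without a trend. At an adjusted p under 0.01, 189 genes were higher and 170 lower at 48 h at 0.8 µM, 850 were called in vehicle, 696 at 20 µM, 1 for the difference against vehicle, 68 for the difference between the doses, and 11 and 126 for 0.8 µM against vehicle at 24 and 48 h. With only the groups compared in the fit, 231 genes were higher and 201 lower at 0.8 µM, 4 differed from vehicle in their time change, and 7 differed from vehicle at 24 h. Centring arrays on their medians gave 398 higher and 240 lower at 0.8 µM, 5 for the difference against vehicle and 34 at 24 h. Without a trend in eBayes these last counts were 5 and 52, and all kept probe sets gave 60 at 24 h. Array weights gave 294 for the difference between the doses. The causes were not tested.

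With the position in the array order as a replicate block, 416 genes were higher and 362 lower at 0.8 µM and 13 differed from vehicle in their time change.

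With single arrays left out, 262 to 480 genes were higher and 227 to 398 lower at 0.8 µM. The difference against vehicle held 4 to 13 genes, that between the doses 126 to 260, vehicle 1227 to 1685 and 20 µM 983 to 1120. At 24 h, 16 to 147 genes differed between 0.8 µM and vehicle, and at 48 h 199 to 384. A dim signal limits what a fold can show, and 18 of the 713 called genes were dim.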
